A study of Mus musculus with 2 samples.

Results

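The mir-17 to mir-92 cluster is a group of 6 microRNA (miRNA) hairpin genes on mouse chromosome 14. Its members are Mir17, Mir18, Mir19a, Mir20a, Mir19b-1 and Mir92-1. They were chosen by gene name, from the 2202 miRNA genes of the GENCODE M21 annotation that the deposited tables list. The samples were 2 adrenal gland libraries of adult male mice of strain 5xFAD/CAST, aged 8 to 10 months, and microRNA-seq was run on RNA below 30 nucleotides. The strain name joins 5xFAD, a transgenic model of Alzheimer's disease, with CAST, a wild-derived inbred strain, and the labels give neither the transgene status of these animals nor a second group. Both libraries are labelled as biological replicates but cite the same donor record, so it is not known whether they came from separate mice, and the spread between them may be technical.

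A miRNA cluster is transcribed as a single primary transcript, from which the enzymes Drosha and Dicer cut hairpins and then short mature strands. The mature strand guides Argonaute proteins to messenger RNAs, mainly through its seed, bases 2 to 8. The mir-17 to mir-92 cluster is induced by MYC and E2F factors, is known for promoting proliferation and survival, and is required in mice for normal lung, heart and B cell development. In adult organs at rest it is usually less abundant than in embryos, lymphoid tissue or tumours.

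The 6 hairpins lay within 836 bases on the plus strand, at chr14:115043671-115044506 of GRCm38 (mm10), and all of them fell inside an exon of the noncoding host gene Mir17hg. The guide strands, the arms that textbooks give as the main mature product, are shown because they sort the members by seed and show which reads can be told apart. Capitals mark the seed. The sequences are from RefSeq, build GRCm38.p6, where all 17 genes named here as members or relatives were found.
Mir17 (miR-17-5p): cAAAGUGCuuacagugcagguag
Mir20a (miR-20a-5p): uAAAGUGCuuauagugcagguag
Mir18 (miR-18a-5p): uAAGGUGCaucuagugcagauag
Mir19a (miR-19a-3p): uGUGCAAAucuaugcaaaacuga
Mir19b-1 (miR-19b-3p): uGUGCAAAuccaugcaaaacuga
Mir92-1 (miR-92a-3p): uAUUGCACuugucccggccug

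Mir17 and Mir20a thus share a seed, as do Mir19a and Mir19b-1, while Mir18 and Mir92-1 each have their own. Positions are counted from 1 at the 5′ end, and a substitution gives the base of the gene named first, the position and the base of the other gene. Between the guide strands of Mir17 and Mir20a, 2 bases differed (C1U and C12U), and between those of Mir19a and Mir19b-1, 1 base differed (U11C). The tables count a read once, for the hairpin gene it falls in, and give no separate count for the 5p and 3p arms.

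For 2 members the guide strand has an exact copy in another hairpin, and this bears on what their counts can hold. Reads that fit more than 1 place were put on a separate line of the tables, which held 30.3% and 32.1% of all reads of replicates 1 and 2, and were counted for no gene. The hairpins of both pairs are shown with the unbroken stretch that the pair shares around the mature strand in capitals.
Mir19b-1, chromosome 14, plus strand: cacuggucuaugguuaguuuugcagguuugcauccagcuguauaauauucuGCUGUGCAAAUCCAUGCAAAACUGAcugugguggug
Mir19b-2, chromosome X, minus strand: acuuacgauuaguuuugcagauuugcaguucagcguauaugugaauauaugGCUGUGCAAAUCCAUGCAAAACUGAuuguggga
Mir92-1, chromosome 14, plus strand: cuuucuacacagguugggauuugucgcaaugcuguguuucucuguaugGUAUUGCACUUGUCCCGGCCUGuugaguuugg
Mir92-2, chromosome X, minus strand: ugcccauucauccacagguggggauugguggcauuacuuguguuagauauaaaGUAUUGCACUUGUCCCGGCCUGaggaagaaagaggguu

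The shared stretch was 25 bases in the mir-19b pair and 22 bases in the mir-92 pair, and in both it ended with the last base of the mature strand. A read inside the capitals matches both hairpins equally well. The counts of Mir19b-1 and Mir92-1 are therefore lower limits. The guide strands of Mir17, Mir18, Mir19a and Mir20a had no exact copy in any other annotated hairpin or transcript outside Mir17hg, while copies elsewhere in the genome were not examined.

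Together the 6 genes held 12543 of the 6783227 sense miRNA reads that replicate 1 gave, and 5108 of 3084602 for replicate 2. These are shares of 0.185% (Wilson 95% interval 0.182 to 0.188) and 0.166% (0.161 to 0.170), with a mean of 0.175% ± 0.0137 (SD, n = 2). CPM here is the reads of a gene per 1000000 sense reads of all miRNA genes, and the sum over the 6 genes was 1849 CPM in replicate 1 and 1656 CPM in replicate 2. In uniquely placed reads the cluster was thus a small part of the adrenal miRNA pool, and it was close to the same size in both libraries. Reads that fit more than 1 place are in neither the sum nor the total. The sum is a lower limit, since it lacks reads of the copied guide strands of Mir19b-1 and Mir92-1. Intervals here and below cover counting error only, since reads without molecular identifiers are not independent molecules. In bulk tissue, fewer cells with a miRNA and less of it per cell cannot be told apart.

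Of the 6 members, 4 were detected above 2 CPM in both libraries, as were 334 of all 2202 genes. Mir17, Mir20a, Mir92-1 and Mir18 were detected, and both mir-19 genes were not. The members that passed spanned ranks 78 to 208 by mean CPM. No member had a read on the opposite strand in either library, and the column for both strands held the same counts as the sense column for all 6.

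Mir17 and Mir20a carry the mir-17 seed, and in other systems both repress the cell cycle inhibitor Cdkn1a and the pro-apoptotic gene Bcl2l11. Mir17 had 6233 reads in replicate 1 and 2212 in replicate 2, or 919 CPM (exact Poisson 95% interval 896 to 942) and 717 CPM (688 to 748). Its mean of 818 ± 143 CPM was the highest of the cluster in uniquely placed reads and put it at rank 78. Mir20a had 473 CPM (456 to 489) and 428 CPM (405 to 451) in replicates 1 and 2, with a mean of 450 ± 31.8 CPM (n = 2) and rank 103. Mir17 was above Mir20a in both libraries, by 1.94-fold (1.86 to 2.03) in replicate 1 and 1.68-fold (1.57 to 1.80) in replicate 2. Both gaps were larger than the replicate difference of either gene, which is the rule used here to call an order of 2 genes.

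Mir92-1, the last hairpin of the cluster, carries the seed of miR-92a, a strand known for restraining vessel growth in mouse endothelium. It had 2774 and 1426 reads in replicates 1 and 2, which were 409 CPM (394 to 424) and 462 CPM (439 to 487). The mean was 436 ± 37.7 CPM (n = 2), at rank 104. Mir20a was 1.16-fold above Mir92-1 in replicate 1 and at 0.925-fold of it in replicate 2. The libraries thus ordered Mir20a and Mir92-1 differently, and the level of Mir92-1 is a lower limit besides.

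Mir18 lies between Mir17 and Mir19a and carries the mir-18 seed, which differs from the mir-17 seed by 1 base; miR-18a is known to target the glucocorticoid receptor Nr3c1 in rat neurons. It had 321 reads in replicate 1 and 146 in replicate 2, or 47.3 CPM in each (42.3 to 52.8 and 40 to 55.7), at rank 208. Mir17 was 19.4-fold above Mir18 in replicate 1 and 15.2-fold in replicate 2. Mir20a was 9.99-fold and 9.03-fold above it, and Mir92-1 8.64-fold and 9.77-fold. All 3 of these orders exceeded the replicate spread, so Mir18 formed a step of its own below the other detected members.

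The mir-19 strands are the members of the cluster best known for driving B cell lymphoma in mice. Both mir-19 genes of the cluster were near the limit of counting. Mir19a had 6 reads in replicate 1 and 1 in replicate 2, or 0.885 CPM (0.325 to 1.93) and 0.324 CPM (0.00821 to 1.81). Mir19b-1 had 3 reads in replicate 1 and 4 in replicate 2, or 0.442 CPM (0.0912 to 1.29) and 1.30 CPM (0.353 to 3.32). For comparison, 3 reads, which is about the one-sided 95% limit of a count of 0, are 0.442 CPM in replicate 1 and 0.973 CPM in replicate 2. The libraries ordered Mir19a and Mir19b-1 differently, and these counts set no order between them.

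Within 1 host transcript, the counts thus ran from 6233 reads to 3 in replicate 1 and from 2212 reads to 1 in replicate 2. Mir17 was 1039-fold above Mir19a in replicate 1 (exact interval 477 to 2832) and 2212-fold in replicate 2 (397 to 87408), where Mir19a had 1 read. Mir19b-1 was the lower of both in replicate 1, where Mir17 stood 2078-fold above it (711 to 10078). By mean CPM, Mir17 was 1353-fold above Mir19a. Among the 4 detected members the fold of highest over lowest was 17.3, for Mir17 over Mir18. Of the 15 pairs among the 6 genes, 13 were ordered beyond the replicate spread, and the exceptions were Mir20a with Mir92-1 and Mir19b-1 with Mir19a. Where a pair holds Mir19b-1 or Mir92-1, its order is one of uniquely placed reads only.

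**Figure D1:**
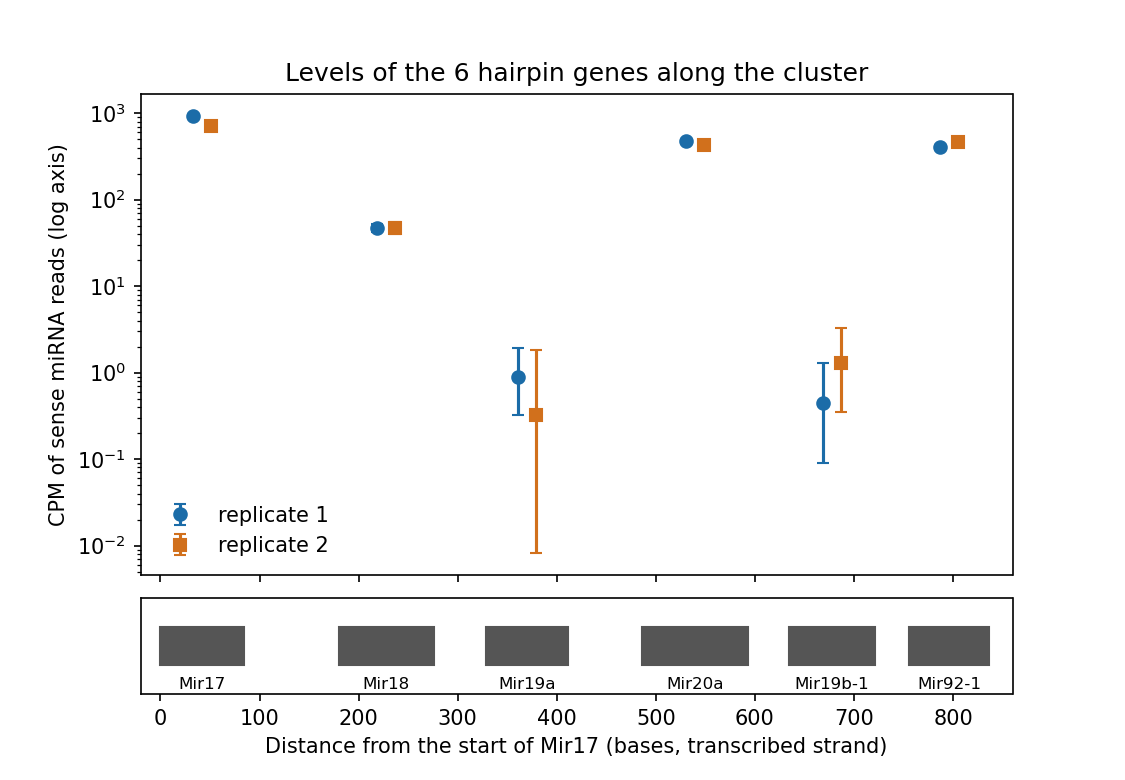
CPM of each member in replicate 1 (circles) and replicate 2 (squares) on a log axis, with exact Poisson 95% intervals, above a map to scale of the 6 hairpins by distance from the start of Mir17 in bases. Mir17, Mir20a and Mir92-1 stand at 409 CPM or higher in both libraries, Mir18 at 47.3 CPM, and Mir19a and Mir19b-1 at 1.30 CPM or lower.

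The low counts of the 2 mir-19 genes differ in how far the shared sequence bears on them. Reads of miR-19b-3p match Mir19b-1 and Mir19b-2 alike, and Mir19b-2 itself had 0 reads in replicate 1 and 1 in replicate 2. The guide strand of Mir19a has no annotated copy, and Mir19a shares no stretch of 20 bases with another annotated hairpin. At 1 base of difference from the mir-19b strand, its reads can be told from those of Mir19b-1 only by that base. Of all genes in the tables, 468 had a higher mean CPM than Mir19a. What set the low count of Mir19a was not tested.

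Simple features of the hairpins were read beside the counts. Hairpin length ran from 80 bases for Mir92-1 to 107 bases for Mir20a, and hairpin GC content from 43.7% for Mir19b-1 to 47.5% for Mir92-1. Neighbouring hairpins were 35 to 96 bases apart. Guide-strand GC content was 34.8% for Mir19a, 39.1% for both Mir19b-1 and Mir20a, 43.5% for Mir18, 47.8% for Mir17 and 57.1% for Mir92-1. Mir20a and Mir19b-1 thus have the same guide-strand GC content, with mean levels of 450 ± 31.8 and 0.870 ± 0.604 CPM (n = 2 each). Only the count of Mir19b-1 among them is a lower limit, which lacks reads of its exact guide strand, so these 2 levels cannot be compared. The part of sequence composition in these levels was not tested.

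Of the cluster's uniquely placed reads, Mir17 held 49.7% in replicate 1 and 43.3% in replicate 2, with a mean of 46.5% ± 4.52. The counts of Mir92-1 and Mir19b-1 are lower limits, so the shares of the other members may be too high. Mir20a held 25.6% and 25.8%, Mir92-1 22.1% and 27.9%, and Mir18 2.56% and 2.86% in replicates 1 and 2. The shares of Mir20a and Mir18 were thus alike in both libraries. The share of Mir17 was higher in replicate 1 and that of Mir92-1 in replicate 2. Both mir-19 genes together held less than any other member, at 0.0478% and 0.0196% for Mir19a and 0.0239% and 0.0783% for Mir19b-1.

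The replicates differed little in the level of the members. On the log2(CPM + 1) scale, replicate 2 minus replicate 1 was -0.36 for Mir17, -0.14 for Mir20a, 0.00 for Mir18 and 0.18 for Mir92-1. An absolute difference of at least 1 was called, with no test, since each replicate is 1 library. None of the 4 members with a mean of 10 CPM or more was called, beside 10.7% of all 280 genes at that level. The median over the 4 was -0.07, against 0.012 over the 280 genes, whose median absolute difference was 0.28. The values of Mir19a (-0.51) and Mir19b-1 (0.67) rest on counts of 1 to 6 reads and show no direction.

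**Figure D2:**
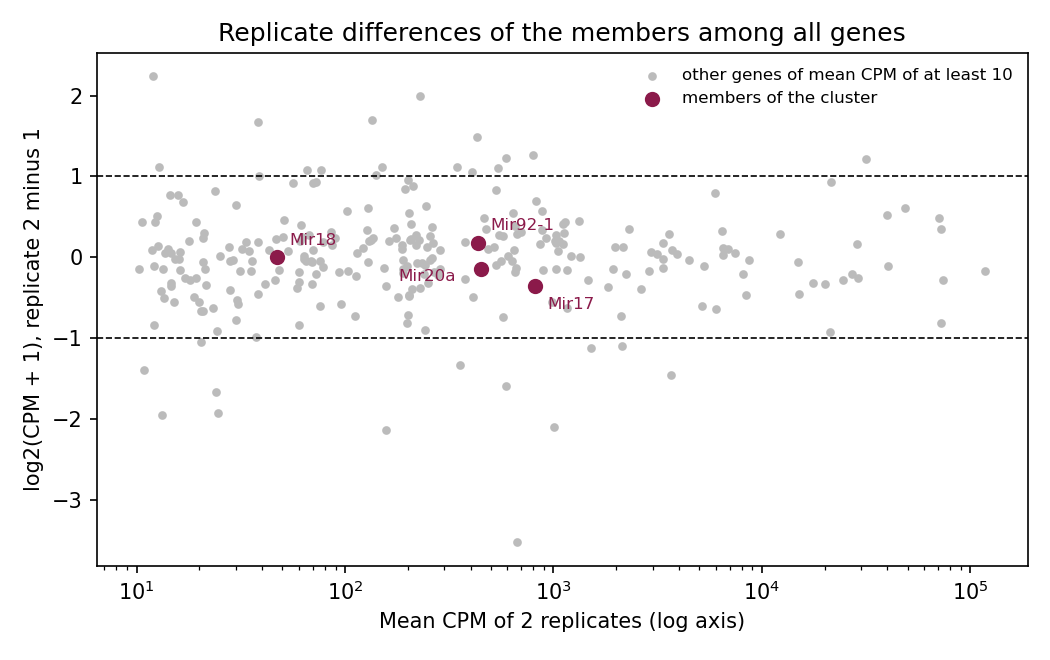
The log2(CPM + 1) difference of replicate 2 minus replicate 1 against mean CPM (log axis) for the 280 genes with a mean of 10 CPM or more, with dashed lines at the limit of 1. The 4 members of the cluster at that level lie between -0.36 and 0.18, inside the lines.

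The cluster has 2 paralogous clusters in the mouse genome, and the members were set beside them. The first, on chromosome 5, lies within the Mcm7 gene, which encodes a replication helicase subunit, and holds Mir106b, Mir93 and Mir25. The second, on chromosome X, holds Mir106a, Mir18b, Mir20b, Mir19b-2, Mir92-2 and Mir363. The chromosome 14 cluster held 0.175% ± 0.0137 of miRNA reads, against 0.153% ± 0.0150 for the chromosome 5 cluster and 0.00903% ± 7.02e-05 for the chromosome X cluster (n = 2 each). The ratio to the chromosome 5 cluster was 1.30 (1.27 to 1.34) in replicate 1 and 1.01 (0.975 to 1.05) in replicate 2, so their order was not clear of the replicate spread. The chromosome 14 sum is a lower limit, since 2 of its members have a copied guide strand and none of the chromosome 5 genes does. Without those 2 members the chromosome 14 genes held 0.132%, against 0.153% for the chromosome 5 cluster. That sum still holds Mir25, which has the same seed as Mir92-1, so the sets of genes are unlike and give no order. The ratio to the chromosome X cluster was 20.6 (19.0 to 22.4) in replicate 1 and 18.2 (16.2 to 20.6) in replicate 2. The chromosome X cluster also has 2 genes with a copied guide strand. Reads that fit both clusters are in neither sum, so this ratio is one of uniquely placed reads only.

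Each detected member exceeded its chromosome X counterpart in counted reads in both libraries. Mir17 was 56.2-fold (46.5 to 68.4) and 55.3-fold (40.5 to 77.6) above Mir106a in replicates 1 and 2, although the guide strands differ at only 1 base (U10A). Mir20a was 14.8-fold (12.9 to 17) and 17.8-fold (14.1 to 22.8) above Mir20b. Mir92-1 was 12.1-fold (10.6 to 13.9) and 13.0-fold (10.7 to 15.9) above Mir92-2, in reads that fit only 1 of these hairpins. Reads inside the stretch that the pair shares, the exact guide strand included, are in neither count. Which of the pair yields more of the guide strand is therefore not known. Mir18b had 0 reads in both libraries, so Mir18 was at least 107-fold higher in replicate 1 and at least 48.7-fold in replicate 2 against a limit of 3 reads per library. The exact two-sided interval of Mir18b reached somewhat higher, to 0.544 CPM in replicate 1 and 1.20 CPM in replicate 2. The 4 orders exceeded the replicate difference of the genes.

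Against the chromosome 5 cluster the members stood on both sides. Mir20a was at 0.5-fold and 0.394-fold of Mir93 in replicates 1 and 2, a lower level beyond the replicate spread, where Mir93 was the highest gene of the chromosome 5 cluster at 1015 ± 98.6 CPM (n = 2). Mir17 was at 0.972-fold (0.939 to 1.01) and 0.661-fold (0.626 to 0.698) of Mir93, and this pair was not ordered beyond the spread. Mir17 was 2.62-fold and 1.79-fold above Mir106b, beyond the spread, while Mir20a was 1.35-fold and 1.06-fold above it, within the spread. Mir92-1 was 3.28-fold (3.03 to 3.54) and 3.14-fold (2.82 to 3.50) above Mir25, which has the same seed and whose guide strand differs by 3 bases.

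**Figure D3:**
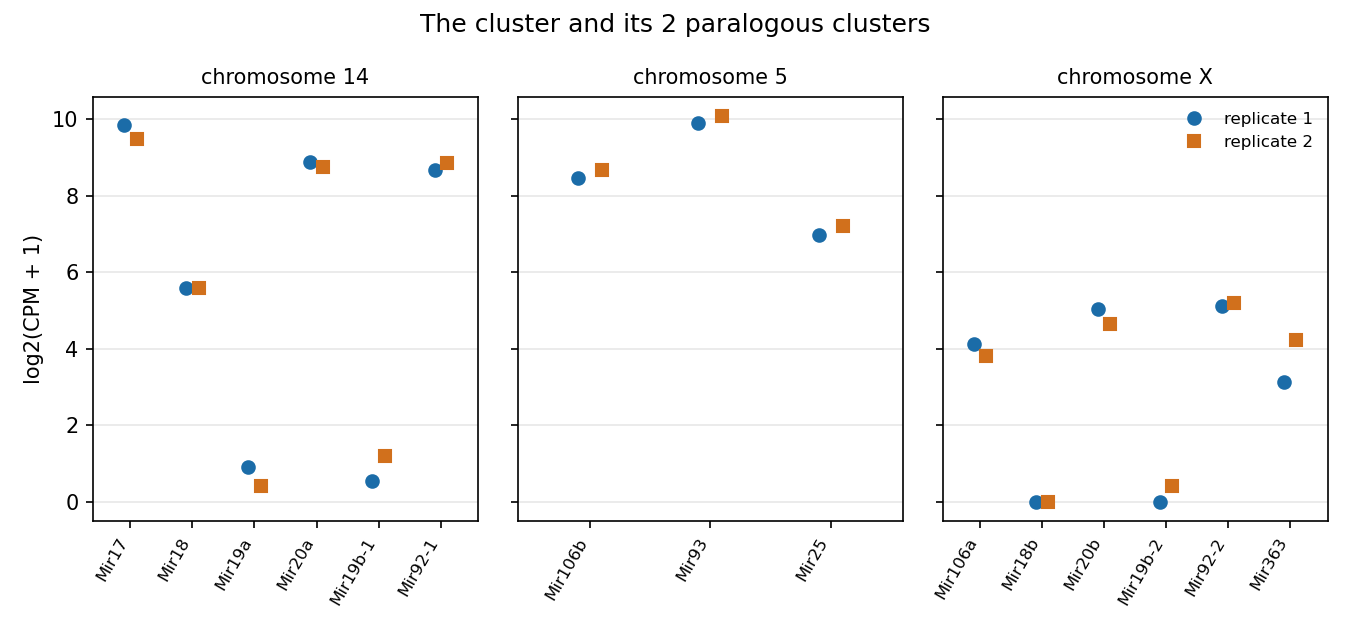
log2(CPM + 1) in replicate 1 (circles) and replicate 2 (squares) for the genes of the chromosome 14 cluster (left) and its paralogs on chromosomes 5 (middle) and X (right), each in transcribed order. Mir18b and, in replicate 1, Mir19b-2 have 0 reads, and the chromosome X genes lie below Mir17, Mir20a and Mir92-1.

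Grouped by the seed of the guide strand, the members held unequal parts of the reads of each family. The counts do not separate the arms, so not every read of a gene need carry the seed. The mir-17 seed was carried by 6 genes that together held 0.270% ± 0.00482 of miRNA reads (n = 2), and all 6 were detected. Mir17 and Mir20a held 50.9% of those reads in replicate 1 (50.1 to 51.6) and 42.9% in replicate 2 (41.8 to 44.0). Summed over the family, the level was 2736 CPM in replicate 1 and 2668 CPM in replicate 2, so it differed by less between the libraries (0.975-fold, replicate 2 over replicate 1) than the cluster sum did (0.896-fold). The log2 replicate differences were -0.36 for Mir17 and -0.14 for Mir20a, against 0.20 for Mir93, 0.19 for Mir106b, -0.31 for Mir106a and -0.40 for Mir20b. No difference among these 6 reached 1, a limit that only 10.7% of the 280 genes of at least 10 CPM reached.

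The mir-92 seed was carried by Mir92-1, Mir92-2, Mir363, Mir25, Mir32 and Mir92b, all detected, with 0.0686% ± 0.00802 of miRNA reads. Mir92-1 alone held 65.0% (63.5 to 66.4) of them in replicate 1 and 62.2% (60.2 to 64.2) in replicate 2. These are shares of uniquely placed reads, and reads that fit Mir92-1 and Mir92-2 alike were counted for neither. A read that ends within the stretch the pair shares, such as the exact miR-92a-3p strand, fits both. Which arm the counted reads of these genes came from was not examined. Without both genes the other 4 held 0.0216% of miRNA reads. Mir92-1 was above each of the others in both libraries and beyond the replicate spread, by 11.2-fold over Mir92b, 15.5-fold over Mir32 and 34.2-fold over Mir363 by mean CPM. Of these relatives, Mir92b (1.01) and Mir363 (1.12) were past the limit of 1, both higher in replicate 2, beside 10.7% of genes. Under TMM scaling, tried after the data were seen, Mir92b was at 0.91 and Mir363 at 1.03, and under DESeq2 size factors at 0.87 and 0.99, so neither stayed past 1 under both. The mir-18 seed rested on Mir18 alone. The 3 genes of the mir-19 seed held 9 reads in replicate 1 and 6 in replicate 2, and 2 of the 3 share the copied guide strand.

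The spread among the detected members was set beside that of other miRNA clusters, taken as neighbouring genes on 1 strand at most 10000 bases apart with at least 3 members with a mean of 10 CPM or more. There were 14 such clusters. The fold of highest over lowest member, among genes at that level, ran from 1.35 in the Mir290a to Mir295 cluster to 1986 in the Mir770 to Mir136 cluster. The mir-17 to mir-92 cluster, at 17.3 (19.4 in replicate 1 and 15.2 in replicate 2), had the sixth lowest fold, between 7.47 for the Gm22072 to Mir669h cluster and 22.8 for the Mir532 to Mir500 cluster. Its paralogs stood lower, at 7.46 for the chromosome 5 cluster (7.57 in replicate 1 and 7.37 in replicate 2) and 2.72 for the chromosome X cluster (4.4 and 2). The highest gene of the chromosome X cluster, Mir92-2, has a copied guide strand, so the fold of that cluster may be too low. Mir92-1 has the same copied strand and its count is a lower limit, so the fold of the mir-17 to mir-92 cluster may be too low as well. Clusters with more members at that level can span a wider range, and both mir-19 genes were left out by the level limit, so this order is a description only. In 5 of the 8 clusters with a wider fold, the lowest gene shares 20 bases with another hairpin, so its count may be a lower limit and the fold too high.

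**Figure D4:**
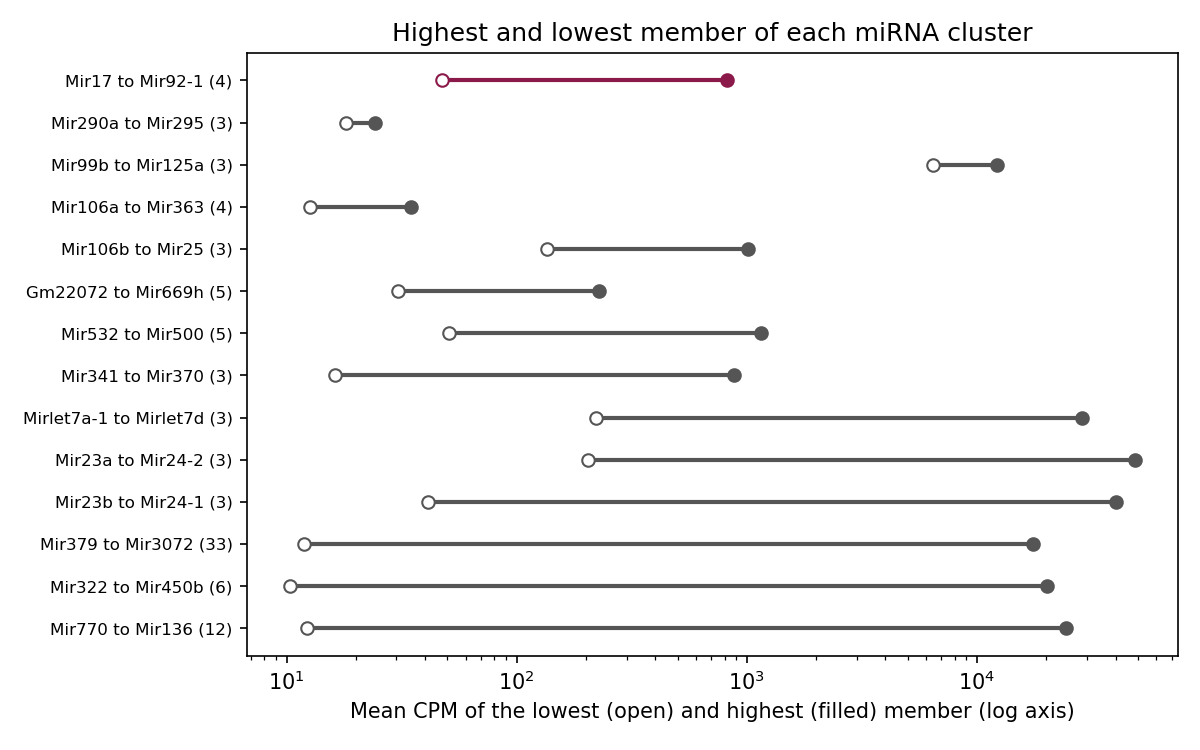
Mean CPM (log axis) of the highest (filled) and lowest (open) member of each of 14 miRNA clusters, among genes with a mean of 10 CPM or more, whose number is in brackets. The mir-17 to mir-92 cluster, on top, runs from 47.3 CPM for Mir18 to 818 CPM for Mir17.

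Genes most like each detected member were those nearest in log2(CPM + 1) over the 2 libraries, outside the lists above. They were Mir154 (945 and 844 CPM in replicates 1 and 2) and Mir149 (813 and 908 CPM) for Mir17, and Mir376a (466 and 499 CPM) and Mir342 (482 and 344 CPM) for Mir20a. For Mir92-1 they were Mir330 (418 and 531 CPM) and again Mir376a, and for Mir18 they were Mir3068 (50.7 and 45.4 CPM) and mmu-mir-3535 (43.2 and 50.6 CPM). With 2 libraries of 1 group this measures a like level and little else. None of these genes shares 20 bases with another hairpin.

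Markers of the tissue and of cell types in which the cluster is well known were read beside it. The neuroendocrine genes Mir375, Mir7b and Mir7-1 held 6.35% and 8.71% of miRNA reads in replicates 1 and 2. Mir375 was at 58717 and 82443 CPM, whereas Mir7b was at 4535 and 4423 CPM and Mir7-1 at 250 and 233 CPM. Mir7-1 shares 20 bases with another hairpin, that of Mir7-2, so its count may be a lower limit. The endothelial Mir126a held 9.26% and 5.25% in replicates 1 and 2. Its log2 replicate difference of -0.82 did not reach the limit of 1. The smooth muscle genes Mir143 and Mir145a held 2.95% and 2.56%. The 4 leukocyte genes Mir142, Mir150, Mir155 and Mir223 held 0.0610% and 0.0693%. In replicates 1 and 2, Mir142 was at 249 and 282 CPM, Mir150 at 162 and 191, Mir155 at 161 and 147, and Mir223 at 38.3 and 73.6. The erythroid pair Mir451a and Mir144 held 0.554% and 0.214%. Mir451a was at 5351 and 1949 CPM in replicates 1 and 2, whereas Mir144 was at 191 and 187 CPM. The liver marker Mir122 held 0.0257% and 0.00577%, or 257 and 57.7 CPM in replicates 1 and 2. Its log2 replicate difference of -2.14 was past the limit of 1, as was that of Mir451a at -1.46, beside 10.7% of the 280 genes of at least 10 CPM. The 2 kidney genes (0.00292% and 0.00285%) and 3 striated muscle genes (0.000369% and 0.000357%) were low. Of these, 1 kidney gene and 2 muscle genes had no read and share 20 bases with another hairpin. The part of any cell type in the levels of the cluster was not tested.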

How the data were processed

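Per the labels and the text deposited beside each table, the authors made 1 table of raw read counts per miRNA gene for each of 2 libraries, on mm10 with GENCODE M21. Of the aligner, its version, adapter removal and allowed mismatches, the sources used here say nothing. The columns carry no header, and the sense column was identified by the layout, that of STAR gene counts, and by its total. Reads placed in no gene, in several places or nowhere stayed out of the totals of sense miRNA reads. They entered only the total of all reads of the table. Reads of a strain with CAST ancestry were compared with a C57BL/6J reference, and variants were not examined.

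Sense counts were scaled to CPM over totals of 6783227 and 3084602, so 1 read of replicate 1 is worth 0.147 CPM and 1 of replicate 2 is worth 0.324 CPM. With 1 group no test was made. Alternatives used edgeR 4.0.16 (TMM) and DESeq2 1.42.0 size factors; the rest used Python 3.11.15 with scipy 1.17.1. The replicate step was tested on simulated data. A planned search of the genome for copies of mature strands was limited to annotated transcripts. The members, lists and rule for named genes (members, listed relatives, the 2 nearest genes in level, cluster extremes) were chosen with earlier results of these data known. Mir7-1 stands for the listed Mir7a-1, by RefSeq synonym.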

Additional observations from a re-analysis of the deposited data

How the results depend on the processing

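The mean share of the cluster, 0.175%, was 0.132% without Mir19b-1 and Mir92-1, whose guide strands have a copy. It was 0.0869% of all reads of the table and 0.197% with the column for both strands. With the total taken only over genes that share no 20 bases with another, the value was 0.202%. That value still counts Mir19b-1 and Mir92-1, which share 20 bases and are not in that total, so it is not a true share and is too high as one. The mean share was 0.166% without replicate 1 and 0.185% without replicate 2. Without the genes with a copied guide strand, the chromosome X cluster held 0.00554%, the mir-19 seed genes 6.04e-05% and the mir-92 seed genes 0.0216%. The fold of highest over lowest member, 1353, was 2212 without replicate 1 and 2078 without replicate 2, and 17.3 among members of at least 10 CPM, a setting chosen after seeing the data. It was 1343 with the column for both strands. These moves follow from which genes and reads enter the value.

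Of the genes, 30 differed at least 2-fold between the replicates, 17 higher and 13 lower in replicate 2; there were 19 among the 173 genes of at least 100 CPM and 58 among the 703 genes with a read. Under TMM the split was 12 higher and 17 lower, and under DESeq2 size factors 8 higher and 17 lower, with median differences of -0.089 and -0.124 over the 280 genes. No member was called under any scaling or pseudocount tried: Mir17 ran from -0.49 to -0.36, Mir20a from -0.28 to -0.14, Mir92-1 from 0.04 to 0.18 and Mir18 from -0.13 to 0.00.

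The counts of Mir19a and Mir19b-1, 1 to 6 reads a library, are too low to compare these genes with each other or between the libraries, and having 2 replicates limits every order.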
